A study of Saccharomyces cerevisiae with 25 samples.

Results

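Of the 25 libraries of a budding yeast time course, 6 were compared to describe the passage from growth to starvation that lies around 150 min after phosphate withdrawal. They were the libraries at 90, 105 and 120 min against those at 165, 180 and 195 min, and each library was placed by its time label. Of the 6650 named genes in the deposited table, 4594 had a value in all 6 libraries and were tested, 704 had a value in some of them and 1352 in none. All libraries came from 1 strain of the laboratory background BY4741, which carried YFP under the PHO84 promoter (pho84pr-YFP) and overexpressed the phosphate transporter gene PHO90 (pho90_OX). The cells grew in high-phosphate medium (1 library), were washed, and were sampled from medium without phosphate at intervals of 15 min (24 libraries). Both windows therefore share the genotype and the absence of phosphate and differ in time. There was 1 library per time point, no control strain was analysed here, no source used here names the promoter that drives PHO90, and no label names separate cultures. The 3 time points of a window stand in for replicates, so the p-values measure the spread between these libraries, which includes change inside a window.

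Budding yeast meets phosphate shortage first with the PHO pathway: the Pho80-Pho85 kinase is inhibited by Pho81, the transcription factor Pho4 enters the nucleus, and genes for high-affinity transporters and secreted phosphatases are switched on. When the shortage reaches growth itself, signalling through TORC1 and protein kinase A drops, the genes for ribosomal proteins and ribosome assembly are turned down, and the transcription factors Msn2 and Msn4 switch on genes for stress protection and storage carbohydrates. Pho90 is a low-affinity transporter of the plasma membrane that is normally used when phosphate is plentiful.

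The 6 libraries held 956710 to 2271193 reads in listed genes. Levels are in RPM, which add up to 1000000 in each library, and genes under 15 reads in a library had no value there. That floor lay at 6.6 to 9.85 RPM in the earlier and 14.77 to 15.68 RPM in the later window, so a weak gene that became lower could drop out of the test more easily than one that became higher. All 7 MATa markers, which fit the mating type of BY4741, were listed in all 6 libraries, with summed levels of 3139 to 3372 RPM in the earlier and 3735 to 3997 RPM in the later window. Of 4 MATalpha markers, STE3 was listed in all 6 libraries at 29.9 to 47.3 RPM, and MF(ALPHA)1 and MF(ALPHA)2 in none. Of 16 meiosis and sporulation markers, NDT80, ZIP1, DIT1 and SPR6 were listed in all 6 libraries, at 13 to 63.6 RPM. Another 4 had a value in some of the 6 libraries, and IME1, IME2 and 6 others in none. The summed level of the 16 was 125 to 176 RPM earlier and 164 to 212 RPM later. HIS3, LEU2 and MET17, which are deleted in whole or in part in BY4741, had no value in any library, and URA3, also deleted there, had a value in 2 of the 25 libraries, one of them among the 6 at 13 RPM. PHO90 itself stood at 2153, 2616 and 2349 RPM in the earlier and 3441, 3900 and 4049 RPM in the later window. Every later library lay above every earlier one, as in 47.1% of all genes tested. The log2 difference of 0.68 ± 0.17 (SE) did not reach the size needed for a call. With each library centred on its median over the genes listed in all 25 libraries, the difference was 0.42 (adjusted p of 0.0838, limma).

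The later window had more RNA for stress protection, storage carbohydrate metabolism, autophagy and the PHO pathway, and less for ribosomes and their assembly. A gene was called at an adjusted p under 0.05 (limma on log2 RPM, Benjamini-Hochberg over all 4594 genes) and a log2 difference of at least 1, which is a 2-fold change. By this rule 312 genes rose (6.79% of those tested) and 142 fell (3.09%). In every called gene the 3 later libraries lay wholly above or wholly below the 3 earlier ones, as they did for 47.1% (above) and 11.9% (below) of all genes tested. The split between rise and fall depends on the scale. RPM are shares of a library, the median gene was 0.32 higher later on the log2 scale, and 68.7% of the calls were rises. With each library centred on its median over the genes listed in all 25 libraries, the median difference was 0.06, 152 genes rose (3.31%), 261 fell (5.68%), and 36.8% of the calls were rises. All 152 were among the 312, and all 142 were among the 261. In these bulk samples a share of reads, the RNA per cell and the share of cells that express a gene cannot be told apart.

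**Figure D1:**
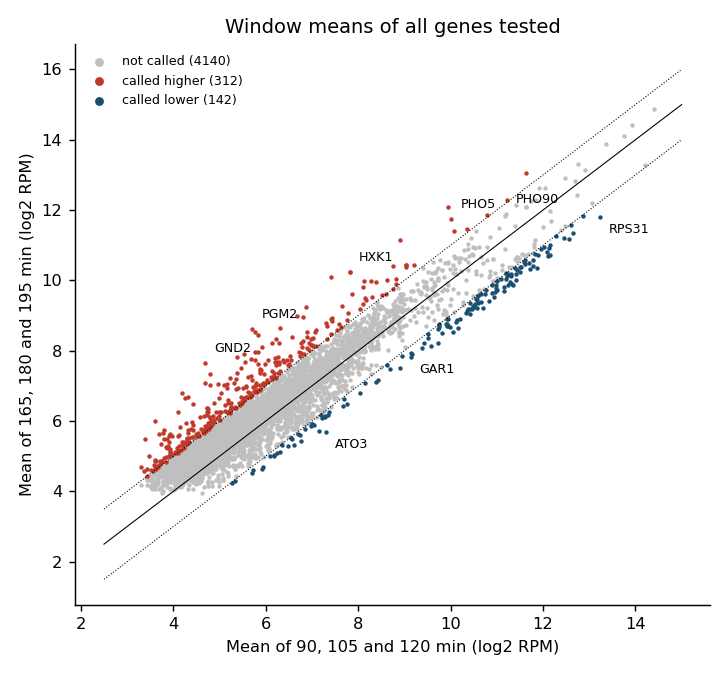
Mean level of each gene tested in the earlier window (horizontal axis, log2 RPM) and in the later window (vertical axis, log2 RPM). Each point is a gene, the solid line marks equal levels, the dotted lines a 2-fold difference, and the 312 genes called higher and 142 called lower lie outside the dotted lines. The called decreases lie mostly among abundant genes.

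The 12 largest rises were led by enzymes of sugar metabolism. GND2, a minor isoform of 6-phosphogluconate dehydrogenase in the pentose phosphate pathway, was at 19.8, 31.9 and 27.6 RPM in the earlier libraries and at 116, 252 and 283 RPM in the later ones. The windows were far apart, and the level still climbed between 165 and 180 min. The log2 difference was 2.97 ± 0.3 (SE), a 7.81-fold rise, with an adjusted p of 1.66e-05 (limma). PGM2, the main phosphoglucomutase, which links glycogen and trehalose to glycolysis, was at 38.7, 57.2 and 65 RPM earlier and 275, 443 and 499 RPM later. Its log2 difference of 2.91 ± 0.24 (SE) was a 7.5-fold rise with an adjusted p of 3.12e-06 (limma). GPH1, glycogen phosphorylase, rose 6.82-fold, and HSP26, a small heat shock protein that holds unfolded proteins, rose 6.02-fold. HXK1, the hexokinase isoform used when glucose is poor, went from 172, 250 and 267 RPM to 1002, 1324 and 1363 RPM. The table also lists YFR052C-A, whose level differed from that of HXK1 by a factor of at most 1.01 in each of the 8 libraries from 90 to 195 min, so it is not a separate observation, and it could not be matched to the annotation used here. SOL4 (2.54 on the log2 scale), which acts just before the GND2 step of the pentose phosphate pathway, GAP1 (2.43), the general amino acid permease, and GLC3 (2.39), the glycogen branching enzyme, were also among the 12. TDH1 (2.69), an isoform of glyceraldehyde-3-phosphate dehydrogenase, shares reads with its near-identical copies, and its values were fractional in 24 of 25 libraries. YBR285W (2.6), which the table gives no other name, and GPG1 (2.39) complete the 12. In all, 34 genes rose at least 4-fold.

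The stretches from 300 to 101 bases before the annotated start codons of GND2 and PGM2 are shown because both genes lead the rises and both carry the stress response element, the site of Msn2 and Msn4. They are RefSeq sequence of build R64, 5′ to 3′ on the strand of the gene, at chrVII:1004324-1004523 (plus strand) and chrXIII:477707-477906 (minus strand). Capitals mark AGGGG on either strand, where CCCCT is its complement.
GND2: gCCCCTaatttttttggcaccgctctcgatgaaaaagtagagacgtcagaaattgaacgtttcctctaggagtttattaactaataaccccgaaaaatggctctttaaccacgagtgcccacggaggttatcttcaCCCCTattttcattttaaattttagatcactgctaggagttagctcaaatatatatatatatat
PGM2: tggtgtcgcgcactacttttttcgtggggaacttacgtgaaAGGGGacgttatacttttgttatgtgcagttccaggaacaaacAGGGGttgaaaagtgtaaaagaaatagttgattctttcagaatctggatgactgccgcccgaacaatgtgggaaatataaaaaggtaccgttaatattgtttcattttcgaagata
Counted from the start codon, the matches began at -299 and -164 in GND2 and at -259 and -216 in PGM2. Of 304 called rises with a promoter in the annotation, 180 (59.2%) held AGGGG on either strand within 300 bases of the start, against 1019 (22.6%) of all 4513 promoters, 22 (15.6%) of 141 called decreases and 817 (20.1%) of 4068 promoters of genes not called. Of the 12 largest rises, 11 had a promoter in the annotation, and 6 of these (54.5%) held the site. GPH1, HSP26, HXK1, GAP1 and GPG1 had no match in that window.

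Genes for stress protection that Msn2 and Msn4 are known to drive rose almost as a whole. Of 42 tested, 36 rose and none fell, with a median log2 difference of 1.61 against 0.32 for all genes tested, and 33 of 42 also rose on the centred scale. CTT1, cytosolic catalase, was at 15, 26.7 and 19.7 RPM earlier and at 67.9, 108 and 152 RPM later. HSP12, a membrane-protecting heat shock protein, stood at 989, 973 and 989 RPM and then at 2505, 5245 and 6350 RPM. The earlier levels of HSP12 were nearly flat, and the later ones more than doubled between 165 and 195 min. The log2 difference was 2.15 ± 0.27 (SE), with an adjusted p of 2.89e-05 (limma). The 6 members without a call were HSP78 (0.94), HSP31 (0.87), SOD2 (0.79), TRX2 (0.47), SSA3 (0.4) and YGP1 (-0.09). In promoters of the 42 genes, AGGGG occurred in 34 (81%), against 22.6% of all 4513 promoters. The list was made of known targets of Msn2 and Msn4, so this share is not an independent result.

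Storage carbohydrate genes moved in both directions of the pathway at once, synthesis and breakdown. Of 15 genes of trehalose and glycogen metabolism tested, 14 rose and none fell (10 and none centred), with a median log2 difference of 1.56. On the side of synthesis, TPS1, trehalose-6-phosphate synthase, went from 100, 128 and 133 RPM to 340, 345 and 427 RPM, and GSY1, a glycogen synthase, rose by 1.94 on the log2 scale. On the side of breakdown, GDB1, the glycogen debranching enzyme, rose by 2.17 and ATH1, a trehalase that acts on trehalose outside the cytosol, by 1.29. UGP1, which makes the UDP-glucose used for both stores, went from 222, 312 and 303 RPM to 820, 910 and 1000 RPM. NTH2, a neutral trehalase, was 0.99 higher and missed the size needed for a call. TPS2, the trehalose-6-phosphate phosphatase, was called at 1.12, but its call was lost when any one of the 90, 165 or 195 min libraries was left out.

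Of 24 genes of glycolysis and fermentation, 7 rose and none fell (7 and none centred), with a median of 0.59. In all 24 every later library lay above every earlier one, against 47.1% of all genes tested. Of the 24, 22 were higher at an unadjusted p under 0.05 (limma), against 46.4% of all genes tested. The 7 were TDH1, HXK1, ENO1 (2.25), an enolase whose values were fractional in 23 libraries, GPM2 (2.07), a copy of phosphoglycerate mutase without activity, PYK2 (1.78), the minor pyruvate kinase, GLK1 (1.74), glucokinase, and ADH5 (1.41), an alcohol dehydrogenase. PYK2 stood at 35.2, 76.1 and 69 RPM in the earlier and 180, 200 and 208 RPM in the later window. The main isoforms had smaller differences that were not called, among them PGK1 (0.44), CDC19 (0.58) and PDC1 (0.57). In the pentose phosphate list, GND2, SOL4 and NQM1 (1.62), a transaldolase, rose, and RKI1 (-1.15), ribose-5-phosphate isomerase, fell. Of 4 hexose transporters tested none was called and 1 was higher at an unadjusted p under 0.05 (limma), the widest differences being those of HXT2 (0.32) and HXT1 (-0.22).

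In the respiratory chain and ATP synthase 6 of 39 genes rose (4 centred), and the median difference was 0.58. CYC7, the cytochrome c isoform of low-oxygen cells, went from 32.1, 31.9 and 30.3 RPM to 112, 125 and 166 RPM. INH1 (1.54) and STF1 (1.49), which stop the ATP synthase from hydrolysing ATP, rose as well, with COX5B (1.47), SDH1 (1.21) and SDH4 (1.16). The count was 9 without the 120 min library. The TCA cycle had 4 of 19 genes called, CIT1 (1.17), citrate synthase, LSC2 (1.13), KGD2 (1.07) and IDH1 (1.03), and none of the 4 was called on the centred scale. In peroxisomes and fatty acid oxidation 3 of 20 were called, PXA2 (1.2), ECI1 (1.09) and FAA1 (1.01), and none centred, and 1 was left without the 90 min library. ALD4 (1.4), mitochondrial acetaldehyde dehydrogenase, was the 1 call among 9 genes of gluconeogenesis and the glyoxylate cycle. Mitochondrial ribosomal protein genes had a median of 0.26, under the 0.32 of all genes and 0 after centring, and 3 of 65 were called (none centred), RSM10 (1.07), MRPL16 (1.02) and MRP8 (1.19), the last listed by its name only. That share was under the 6.79% of all genes tested that were called higher.

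**Figure D2:**
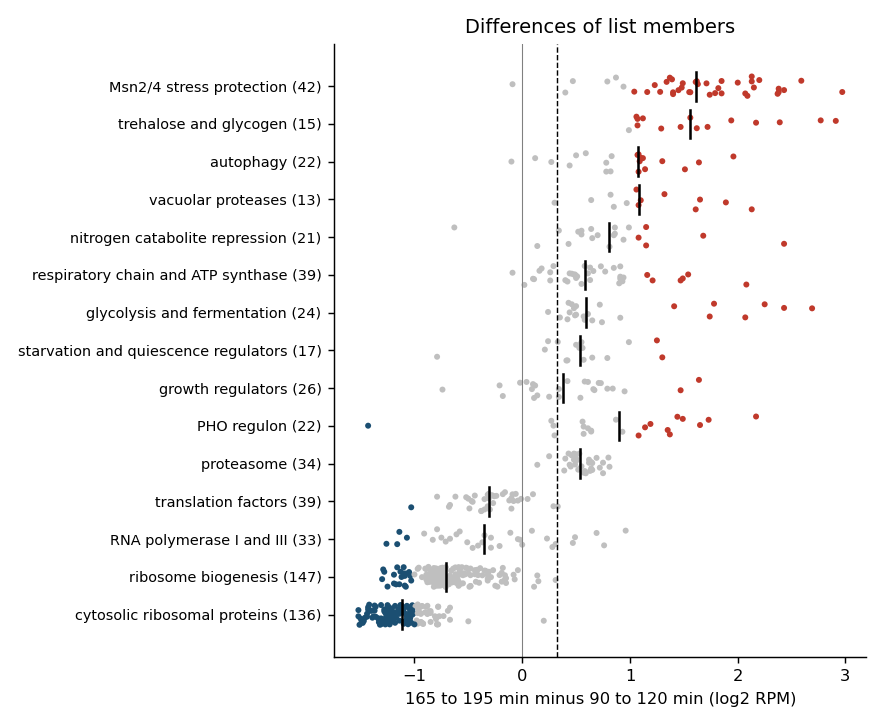
Differences between the later and the earlier window (horizontal axis, log2 RPM) for each tested member of 15 gene lists. Red points were called higher, blue points lower and grey points were not called. Black bars mark the list medians and the dashed line the median of 0.32 over all genes tested. Stress protection and storage carbohydrate genes lie to the right, ribosomal protein and ribosome biogenesis genes to the left.

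RNA for autophagy and vacuolar proteases was part of the rise. Of 22 autophagy genes tested, 12 rose and none fell (median 1.08), 4 of them on the centred scale, and the count was 6 without the 90 min library and 7 without the 195 min library. ATG8, the ubiquitin-like protein that is bound to the growing autophagosome membrane, was at 21.6, 29.3 and 30.2 RPM earlier and 60.1, 72.1 and 101 RPM later. ATG22 (1.64), a vacuolar exporter of amino acids, and ATG34 (1.96), a cargo receptor, rose further, and ATG13 (1.3), the regulator of the Atg1 kinase, was called too. ATG1 had no value in the 8 libraries from 90 to 195 min. Of 13 vacuolar protease genes, 8 rose (5 centred). PRB1, vacuolar proteinase B, went from 44, 61.8 and 43.4 RPM to 132, 136 and 204 RPM, AMS1 (1.89) encodes vacuolar mannosidase, and PAI3 (2.13) encodes an inhibitor of proteinase A. PEP4, proteinase A itself, was 0.97 higher and not called. The 34 proteasome genes tested had no call in limma, though 32 were higher at an unadjusted p under 0.05, against 46.4% of all genes tested. Their difference lay between 0.14 and 0.81, with a median of 0.54. In 33 of them every later library lay above every earlier one, against 47.1% of all genes tested. RPT2, an ATPase subunit of the regulatory particle, was at 321, 331 and 330 RPM earlier and 548, 562 and 619 RPM later. Genes under nitrogen catabolite repression had 5 of 21 called (2 centred), GAP1, DAL80 (1.68), a repressor of the group, GDH2 (1.15), DAL3 (1.15) and UGA1 (1.08).

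The PHO regulon went on rising. Of 22 members tested, 10 rose and 1 fell (7 and 1 centred), with a median of 0.9. PHO5, the main secreted acid phosphatase, was at 692, 1149 and 1406 RPM in the earlier and 2903, 3657 and 3868 RPM in the later window. It was thus already climbing inside the earlier window, and all later values lay above it. The log2 difference was 1.73 ± 0.21 (SE), with an adjusted p of 1.26e-06 (limma). Its values, like those of PHO11 (1.35) and PHO12 (1.08), were fractional in 23 or 24 libraries, since these phosphatase genes share reads with near-identical copies. PHM8, a phosphatase of lysophosphatidic acid and nucleotides, went from 88.5, 122 and 129 RPM to 411, 437 and 701 RPM, the largest rise of the list (2.17 ± 0.19, SE). PHO89, a sodium-phosphate cotransporter, went from 122, 168 and 257 RPM to 473, 483 and 509 RPM. PHM6 (1.65), GDE1 (1.44), which cleaves glycerophosphocholine, HOR2 (1.37), a glycerol phosphatase, PHO8 (1.19), the vacuolar alkaline phosphatase, and KCS1 (1.14), an inositol polyphosphate kinase, rose as well. PHO84, the high-affinity transporter, was at 588, 692 and 778 RPM earlier and 1186, 1273 and 1455 RPM later. The windows did not overlap, but the difference of 0.93 ± 0.15 (SE) missed a call, and PHO84 overlaps the noncoding gene YNCM0001W on the other strand. The polyphosphate polymerase genes VTC1 (0.87), VTC2 (0.3), VTC3 (0.56) and VTC4 (0.57) were not called, nor were PHO81 (0.61), SPL2 (0.29), which restrains low-affinity transport, PHO86 (0.27), VIP1 (0.57), DDP1 (0.64) and PPN1 (0.64). The only member that fell was PHO3, the acid phosphatase gene beside PHO5 that does not depend on phosphate. It went from 143, 159 and 125 RPM to 60.7, 42.5 and 55.7 RPM (-1.43 ± 0.16, SE), with values that were also fractional. GIT1, the permease for glycerophosphoinositol, was not tested. It had no value in the earlier libraries and stood at 24.6, 26.1 and 34.8 RPM in the later ones, where the lowest was 2.5 times the highest floor of the earlier window. Among 11 genes of phosphate signalling and low-affinity uptake, PHO80 (1.17), the cyclin that holds the pathway off, was the 1 called, and it was not called on the centred scale.

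Part of the PHO5 promoter is shown because the gene is the standard readout of Pho4. It lies at chrII:431052-431251 on the minus strand, from 300 to 101 bases before the start, with CACGTG in capitals, the E-box that Pho4 binds.
PHO5: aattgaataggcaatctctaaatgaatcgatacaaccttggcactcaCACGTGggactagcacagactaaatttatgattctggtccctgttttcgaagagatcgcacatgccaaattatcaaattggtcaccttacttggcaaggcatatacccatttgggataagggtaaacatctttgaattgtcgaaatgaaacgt
The match in this stretch began at -253 from the start codon, and bases further than 300 from the start were not searched. CACGTG, which reads the same on both strands, was found in the 300 bases before the start of 11 of the 22 PHO genes (50%). It was found in 176 (3.9%) of all 4513 promoters. The PHO list was made of known genes of the pathway, so its share of 50% is not an independent result. PHO11, PHO12, PHM6 and HOR2 were among the 11, and so were PHO86, SPL2, VTC1, VTC4, DDP1 and VIP1, which were not called. PHM8, PHO89, GDE1, PHO8 and KCS1 were called higher and had no match in that window.

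Cytosolic ribosomal protein genes fell as a group. They took 36.5%, 33.3% and 33% of all reads in the earlier libraries, 30.9% at 135 min, 24.9% at 150 min, and 20.9%, 15.4% and 12.9% in the later ones. The share went from 34.3% ± 1.93 to 16.4% ± 4.11 (SD, n = 3 libraries each), a difference of -17.9 percentage points. An exact permutation test, with both tails counted, gave p = 0.1, the smallest value that 3 against 3 libraries allow. Of 136 genes tested, 98 fell and none rose (130 and none centred), with a median log2 difference of -1.12. In 135 of the 136 every later library lay below every earlier one, against 11.9% of all genes tested. The exception was RPL15B (0.2). The 38 without a call ranged from -0.99 to 0.2. The count was 58 without the 195 min library and 123 without the 165 min library. RPS31, which encodes a ribosomal protein fused to ubiquitin, went from 10547, 9545 and 8918 RPM to 4815, 3321 and 2837 RPM. RPL12A, whose protein sits at the stalk base of the large subunit, went from 1262, 1096 and 1075 RPM to 548, 386 and 297 RPM, a 2.87-fold fall (-1.52 ± 0.17, SE, adjusted p of 5.74e-07, limma). RPL27B, RPS21B, RPS29A, RPL33B, RPS18B, RPS22A, RPL8A and RPL1B had log2 differences of -1.52 to -1.44 and were among the 12 largest decreases. Values of 115 of the 136 genes were fractional in at least 1 library, since most of these proteins are encoded by pairs of near-identical genes, and the split within a pair is uncertain.

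Genes for ribosome assembly were lower as well. Of 147 tested, 20 fell and none rose, with a median of -0.71. In 118 of them every later library lay below every earlier one, against 11.9% of all genes tested. On the centred scale 65 fell, with a median of -0.97. GAR1, a core protein of the particles that guide pseudouridine formation in rRNA, was at 616, 540 and 535 RPM earlier and 326, 194 and 187 RPM later (-1.3 ± 0.17, SE). CGR1, which acts in processing of the large subunit's rRNA, went from 376, 291 and 347 RPM to 169, 118 and 130 RPM. ERB1, also needed for the large subunit, fell by 1.28 on the log2 scale. Among 33 genes of RNA polymerases I and III and their factors, 4 fell and none rose (8 and none centred), RPA190 (-1.26), RPC31 (-1.16), RPA135 (-1.14) and RPA43 (-1.07), with 1 of them left when the 195 min library was omitted. RPA190, the largest subunit of the polymerase that makes rRNA, went from 212, 182 and 225 RPM to 127, 90.9 and 54.7 RPM, and its call rests on the 195 min library. Translation factor genes had 1 call in 39, RLI1 (-1.03), a ribosome recycling factor, whose call was lost in 4 of the 6 omissions. That share was under the 3.09% of all genes tested that were called lower.

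The distal promoters of CGR1 (chrVII:439763-439962, plus strand) and RPA190 (chrXV:960687-960886, plus strand) are shown because they stand for the assembly genes and for rRNA transcription. Capitals mark the PAC motif, GATGAG or its complement CTCATC, which the repressors Dot6 and Tod6 bind, and the RRPE motif, AAAATTTT, which Stb3 binds.
CGR1: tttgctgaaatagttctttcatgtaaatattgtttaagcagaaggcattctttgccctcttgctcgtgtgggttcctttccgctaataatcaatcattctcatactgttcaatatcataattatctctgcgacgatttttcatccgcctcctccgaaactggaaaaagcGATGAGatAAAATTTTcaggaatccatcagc
RPA190: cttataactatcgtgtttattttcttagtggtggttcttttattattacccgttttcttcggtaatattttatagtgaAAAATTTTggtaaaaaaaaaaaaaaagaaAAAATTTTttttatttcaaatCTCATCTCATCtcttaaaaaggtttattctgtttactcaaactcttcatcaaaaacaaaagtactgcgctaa
CGR1 had 1 match of each, which began at -131 (PAC) and -123 (RRPE) from the start codon. In RPA190 the RRPE matches began at -222 and -193 and the PAC matches, which overlap, at -172 and -167. Among the 147 assembly genes, 129 (87.8%) held GATGAG and 111 (75.5%) held AAAATTTT within 300 bases of the start, on either strand, against 866 (19.2%) and 492 (10.9%) of all 4513 promoters. Among the 43 genes that fell outside the ribosomal proteins, which include assembly genes, the shares were 34 (79.1%) and 32 (74.4%). The assembly list was made of known genes of that function, so its shares are not an independent result. The ribosomal protein genes differed, with 16 (11.8%) and 9 (6.62%) of 136.

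**Figure D3:**
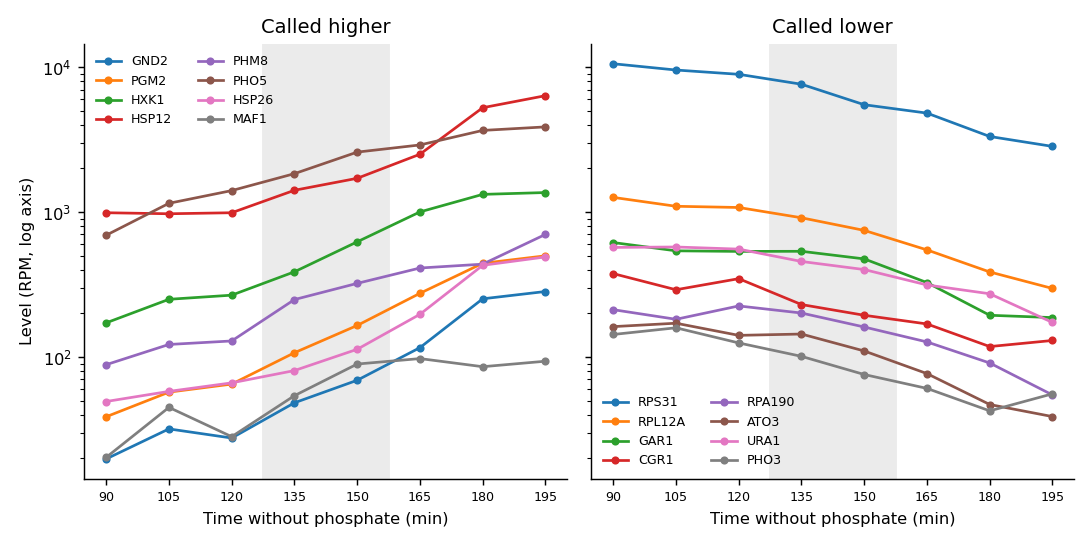
Levels of 16 called genes in the 8 libraries from 90 to 195 min (vertical log axis, RPM), 8 called higher (left) and 8 called lower (right). The grey band marks the libraries at 135 and 150 min, which were not used in the test. GND2 went from 19.8 RPM at 90 min to 283 RPM at 195 min and RPS31 from 10547 to 2837 RPM.

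Most growth regulators tested were not called. MAF1, the repressor of RNA polymerase III, went from 20.3, 44.9 and 28.2 RPM to 97.5, 85.7 and 93.5 RPM (1.64 ± 0.22, SE). The 24 without a call lay between -0.74 and 0.95, and among them were RAP1 (0.04), SCH9 (-0.02), TOR1 (0.58) and TOR2 (0.12). The transcription factor gene SFP1 had too few values for a test, at 9.75 to 13.8 RPM in the earlier libraries and 22 RPM at 180 min. Of 31 regulators of starvation and quiescence, 17 were tested, and ATG13 and SNZ1 (1.25), an enzyme of vitamin B6 synthesis, rose. STM1, which guards idle ribosomes, was at 946, 1008 and 926 RPM earlier and 687, 565 and 436 RPM later. Its difference of -0.79 was not called. It was called lower on the centred scale (-1.06) and when scaled to RPM outside ribosomal protein genes (-1.14). MSN2 and MSN4 could not be tested: MSN2 lay at 10.6 to 20.2 RPM earlier and 14.8 and 21.9 RPM at 165 and 195 min, and MSN4 was listed only at 150 and 195 min among these 8 libraries. XBP1, a stress-induced repressor, had no earlier value and was at 20.7, 20.9 and 22.9 RPM later, its lowest value being 2.1 times the highest earlier floor. MUP3, a low-affinity methionine permease, and YPL119C-A were the other genes with all later and no earlier values. In the other direction 43 genes had all earlier and no later values. Only 4 of these had every earlier value above every later floor, among them RFU1, RRT5 and MCM1.

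Genes of biosynthesis split. In pyrimidine synthesis URA10 (1.69) rose, while URA1 (-1.21), dihydroorotate dehydrogenase, and URA7 (-1.09), CTP synthase, fell. URA1 went from 570, 574 and 555 RPM to 314, 273 and 173 RPM. In purine and one-carbon metabolism GCV1 (1.26), of the glycine cleavage system, rose, and AAH1 (-1.16), adenine deaminase, and MIS1 (-1.02), a mitochondrial folate enzyme, fell. All 4 of these decreases were lost when the 195 min library was left out. Amino acid synthesis had 1 call in 53, SER3 (1.47), which overlaps the noncoding gene YNCE0017W, and sulfur metabolism had 1 in 26, MET28 (1.08), lost without the 120 or the 180 min library. Of the other lists, phospholipid phosphate sparing had 4 of 15 called, namely GDE1, HOR2, GPD1 (1.28) and PLC1 (1.26), the cell wall 3 of 24, led by HPF1 (2.3), with 1 left without the 90 min library, and cytosolic chaperones 2 of 38, SSE2 (1.42) and SSA1 (1.07), the latter lost without the 180 min library. Ergosterol (ERG25, 1.01), fatty acid and phospholipid synthesis (OPI3, 1.22), the zinc regulon (DPP1, 1.11), G1 and S phase (RFA1, 1.12) and the G2/M list (RME1, 1.35) had 1 call each. These lists had 25, 27, 15, 30 and 29 genes tested. No share called lay above the 6.79% of all genes tested that were called higher. The shares in amino acid synthesis, sulfur metabolism and cytosolic chaperones were under it as well. Among ERG25, OPI3, DPP1, RFA1 and RME1, only RME1 was called on the centred scale. The call of ERG25 was lost in 4 of the 6 omissions of a library, and the ergosterol count ran from 0 to 4, with 4 called without the 165 min library and none without the 90, 180 or 195 min library. Core histones, iron uptake, the secretory pathway and the MATa markers had none in limma, with 6 of 10, 2 of 16, 17 of 32 and 2 of 7 higher at an unadjusted p under 0.05 and 5 iron uptake genes lower. Over all genes tested 46.4% were higher and 11.4% lower at that p, so the histone and secretory shares were near the background and the other 2 shares of higher genes under it. The widest differences were those of FET3 at -0.69, PDI1 at 0.61, HHF1 at 0.65 and STE2 at 0.63.

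The libraries at 135 and 150 min lay between the windows, and the called PHO genes had covered more of their difference by then. As a share of its difference between the window means, the median gene among those called higher had reached 34.1% at 135 min and 53.9% at 150 min, and among those called lower 19.9% and 40%. For the 10 PHO genes called higher the medians were 43.1% and 73.8%, for the 36 called stress protection genes 30.3% and 47.4%, and for the 98 called ribosomal protein genes 19.6% and 42%. These shares were set by the windows that made the calls and carry no test. Change had not ended by 165 min: all 98 called ribosomal protein genes were lower at 195 than at 165 min, by a median of -0.76 on the log2 scale, and 35 of the 36 stress protection genes were higher, by a median of 0.57. The calls used these libraries, so the counts carry no test either. Over all 136 and 42 genes tested in these lists the medians were -0.73 and 0.51, against 0.09 over all genes tested.

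**Figure D4:**
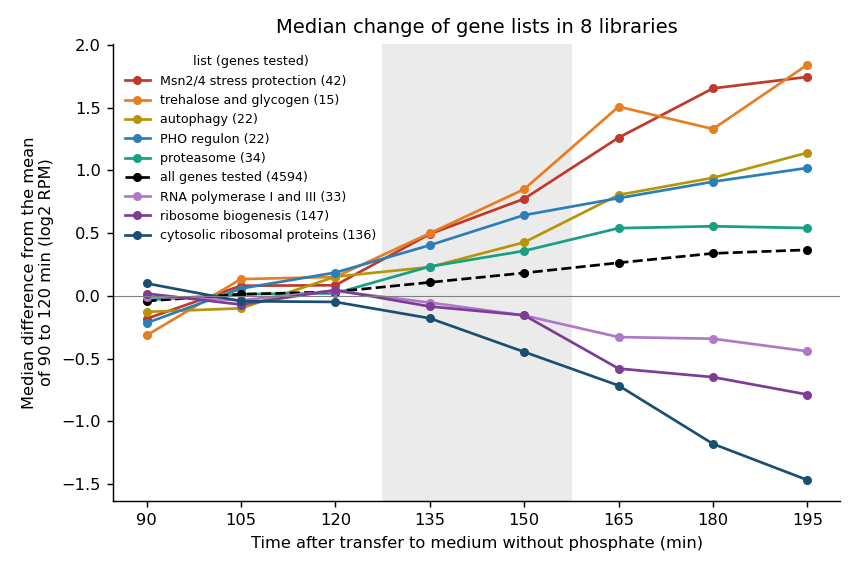
Median difference from the mean of the earlier window (vertical axis, log2 RPM) for 8 gene lists and for all genes tested (dashed) in the 8 libraries from 90 to 195 min. The grey band marks 135 and 150 min. Ribosomal protein genes went from 0.1 at 90 min to -1.47 at 195 min, and stress protection genes from -0.18 to 1.75.

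The step between the windows was then set against the steps of equal length before and after it, with 3 libraries at 15 to 45 min and 3 at 240 to 270 min. The steps share windows, so they are given side by side, and the difference of 2 steps was tested directly in 1 limma model over 12 libraries and 3403 genes. In the preceding step 11 genes rose and 17 fell (0.323% and 0.5%), in the following step 12 rose and 6 fell (0.353% and 0.176%), and over the step between the windows 234 rose and 137 fell (6.88% and 4.03%). The change differed from that of the preceding step in 700 genes, 498 with a more positive change (14.6%) and 202 with a more negative one (5.94%). It differed from that of the following step in 396 genes, 191 more positive (5.61%) and 205 more negative (6.02%). On the centred scale 247 genes (7.26%) had a more positive and 338 (9.93%) a more negative change than in the preceding step. Against the following step the centred counts were 152 (4.47%) and 232 (6.82%). Rises and falls on that scale numbered 11 and 14 (0.323% and 0.411%) in the preceding step. Between the windows they numbered 122 and 243 (3.59% and 7.14%), and in the following step 1 and 12 (0.0294% and 0.353%).

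PHO genes had begun to rise before the switch. Their median change was 0.75 in the preceding step, 0.9 between the windows and 0.24 in the following step, and in the preceding step 9 of 22 were already called higher, namely PHO84, PHO5, PHO11, PHO12, PHO89, SPL2, PHM6, VTC1 and VTC3. PHO5 was at 338, 267 and 275 RPM at 15, 30 and 45 min and rose by 1.83 in the preceding step and 1.73 in the next, a difference of -0.1 (adjusted p of 0.845, limma). SPL2 had made its move by then: it rose by 1.83 in the preceding step and was 0.29 higher in the next, a difference of -1.54 (adjusted p of 0.000739, limma). PHM8 and HOR2 had more positive changes at the switch than before, by 1.52 and 1.12 (adjusted p of 0.00189 and 0.00152, limma). PHO3 and SPL2 were the 2 members with a more negative one.

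Stress protection genes had a median change of -0.36 in the preceding step, 1.56 between the windows and 0.13 afterwards, and in 36 of 39 the change was more positive than in the preceding step. Of the 39, 5 were called lower in the preceding step (12.8%, against 0.5% of all genes) and 3 in the following one (7.69%, against 0.176%). The medium was changed between 0 and 15 min. Over that interval the 212 genes called higher and listed in all 25 libraries had a median change of 1.15. The median over all 3255 genes listed in all 25 libraries was 0.2. In each interval from 15 to 90 min the median of the 212 was negative, between -0.26 and -0.05. The median over the 3255 genes was negative there too, between -0.06 and -0.01. The 212 were called for low levels in the earlier window, so a decline towards it can come in part from the call. GND2 was at 44.4, 33.9 and 26.6 RPM at 15, 30 and 45 min, and at 289, 225 and 306 RPM at 240, 255 and 270 min. PGM2 stood at 211, 240 and 409 RPM in that last window. Proteasome genes, none of which was called between the windows, had medians of -0.51, 0.54 and -0.18 over the 3 steps, and in 22 of 34 the change between the windows was more positive than in the preceding step.

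Ribosomal protein genes had median changes of 0.06, -1.12 and -0.52, with 1 of 136 called lower in the following step, and 15 of 136 differed between the switch and the following step. Assembly genes had median changes of 0.24, -0.69 and 0.72, and in 101 of 133 the change at the switch was more negative than in the following step. GAR1, at 326, 194 and 187 RPM in the later window, stood at 431, 380 and 386 RPM at 240, 255 and 270 min, with a difference between the 2 steps of -2.11 (adjusted p of 0.000248, limma). CGR1 stood at 257, 367 and 189 RPM at those times, with a difference of -2.21 (adjusted p of 0.000285, limma). RNA polymerase I and III genes followed the assembly genes, with median changes of 0.21, -0.44 and 0.56, and 12 of 28 differed from the following step. In that step 8 of the 133 assembly genes were called higher on their own. On the centred scale only 1 of all 3403 genes was called higher in that step.

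**Figure D5:**
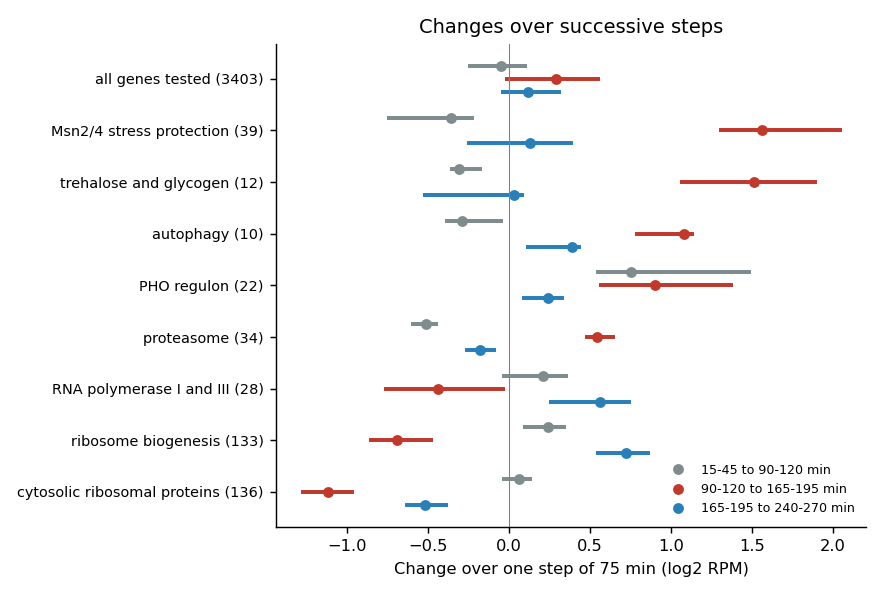
Median change (points) and interquartile range of the genes (bars) over 3 successive steps of 75 min (horizontal axis, log2 RPM) for 8 gene lists and all genes tested, with the number of genes listed in all 12 libraries in parentheses. Ribosome biogenesis genes had medians of 0.24, -0.69 and 0.72, and ribosomal protein genes of 0.06, -1.12 and -0.52.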

How the data were processed

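RNA sequencing of 1 time course gave 25 libraries. Per the submitters' processing notes, the aligner was Bowtie and the build R64. Which counter, annotation and strand setting were used is not stated in the labels. The deposited log2 values, raised as powers of 2, summed to 1000000 per library, so they were taken as log2 RPM made by the authors. Entries under 15 reads were missing, and at a tolerance of 0.02 reads 93.6% to 94.4% of a library's values were whole reads. Because of the fractional rest, limma 3.58.1 in R 4.3.3 (trend, robust, both tails) was fitted to those log2 RPM without adding a pseudocount, not a count model. The test was tried on simulated data. Depth over the 25 libraries was 450744 to 2271193 reads. PCR duplicates cannot be told from separate molecules here. Windows were set by time labels. Promoter sequence, coordinates and gene overlaps came from RefSeq's copy of R64, to which 4513 of the 4594 tested genes were matched. Its bases were read by gene coordinates of the same annotation. List names were translated to the table's own names for the same locus, and 1 name that occurred on 2 lines of the table was never named. Gene lists, the time windows and the genes compared were chosen with earlier results of these data known.

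The genes named were the 12 largest called changes in each direction, PHO90 and PHO84, members of the PHO and regulator lists, up to 3 members of each other list by size of difference, and genes with values in 1 window only. Others were named after their values were seen, as examples of their list. 1 gene that this rule names is not reported here. Alternatives were other scales, a pseudocount of 10 RPM, a mean of at least 32 RPM, limma without trend and robust estimation, other windows and thresholds, and leaving out each library.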

Additional observations from a re-analysis of the deposited data

Results flagged for a closer look

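The change between 90 to 120 min and 165 to 195 min differed from the change over the preceding step of 75 min in 700 of 3403 genes, and from that over the following step in 396, by a limma test of the difference of 2 steps itself. On the centred scale the counts were 585 and 384, with a more positive change in 247 and 152 of them. The 15 min library, the first after the change of medium, had the lowest depth of all 25 at 450744 reads. Without it 694 and 501 of 4204 genes differed.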

How the results depend on the processing

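Of the 312 rises and 142 decreases, 210 and 78 were called in all 6 fits that left out 1 library. The counts of rises then ran from 272 to 395 and those of decreases from 87 to 191, and both lowest counts came without the 195 min library. Centring gave 152 rises and 261 decreases, scaling to RPM outside ribosomal protein genes 130 and 306, a pseudocount of 10 RPM 188 and 122, and a 1.5-fold threshold 1127 and 343. Limma without trend and robust estimation, a mean of at least 32 RPM, windows of 4 time points and a value in 5 of 6 libraries kept both counts within 1.5 times. The cause was not tested. Adding ASC1 moved the change in ribosomal protein share to -18 percentage points. For 154 named genes, 1533 of 1672 recomputed differences kept their direction and call, 92 lost the call, 14 gained one and 33 changed sign. Every change of sign was in a gene without a call. On the centred scale RAP1 (-0.23), HMO1 (-0.16), TOR2 (-0.14), KOG1 (-0.12), TAP42 (-0.01), SIT4 (-0.16), TPK3 (-0.17), WHI2 (-0.06), SNF1 (-0.02) and STE3 (-0.04) turned negative. Scaled outside ribosomal proteins, so did RAP1 (-0.31), HMO1 (-0.24), TOR2 (-0.23), KOG1 (-0.21), TAP42 (-0.1), SIT4 (-0.24), TPK3 (-0.25), WHI2 (-0.14), SNF1 (-0.11), STE3 (-0.12), PHO86 (-0.08), SPL2 (-0.05), VTC2 (-0.04), TPD3 (-0.01), CDC25 (-0.01), MIG1 (-0.02) and HXT2 (-0.02). With 1 library left out, RAP1 ranged from -0.11 (and -0.04) to 0.15, KOG1 from -0.13 to 0.35, SIT4 from -0.01 to 0.22 and SCH9 from -0.16 to 0.16 (and 0.01). No paired analysis was possible because each library is a single time point of 1 course and nothing pairs the libraries of the windows. Depth limits weak genes most, since the floor was higher in the later window.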

Other observations

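Of the 312 rises, 189 belonged to none of the lists used, and 70 of the 312 have only a systematic name in the table. They include DCS2 (2.38), an inhibitor of mRNA decapping scavenger activity, TFS1 (2.35), which inhibits the vacuolar carboxypeptidase Y, GCY1 (2.18), a glycerol dehydrogenase, RGI1 (2.04) and ICY1 (1.96), all log2 differences chosen after their values were seen. Of the 142 decreases, 13 belonged to no list. Besides ATO3, a plasma membrane protein linked to ammonium export, which went from 162, 171 and 141 RPM to 76.8, 47 and 38.8 RPM (-1.6 ± 0.19, SE), they include the uridine permease gene FUI1 (-1.26), SRP40 (-1.34), a nucleolar protein, and SNU13 (-1.2), a protein of box C/D particles that guide rRNA methylation.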
